A study of Homo sapiens with 16 samples.

Results

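The enzymes that remove methyl groups from lysine 27 and lysine 9 of histone H3 were followed across 16 expression arrays of human multiple myeloma cells. The set comprised the 10 genes KDM6A, KDM6B, KDM3A, KDM3B, KDM4A, KDM4B, KDM4C, KDM1A, PHF8 and PHF2. Its members were chosen by name, as the probes whose gene name in the array files equalled one of these symbols, and 16 probes of 50599 and 10 gene symbols of 32080 on the array met this rule. RPMI-8226 and MM.1S, 2 established myeloma cell lines, were treated for 6 days with the vehicle DMSO, with GSK126 (1 µM), an inhibitor of the H3K27 methyltransferase EZH2, with UNC0638 (1 µM), an inhibitor of the H3K9 methyltransferase G9a (encoded by EHMT2), or with GSK126 + UNC0638 (1 µM each). Each of the 8 groups had 2 arrays, labelled as replicates 1 and 2. Each array measured the total RNA of 1 sample by a single dye, and all values below are log2 intensities relative to the 75th percentile of their own array, so that a difference of 1 is a doubling and a level of 0 is that percentile. Levels are compared within a probe only. In RNA of a whole culture, fewer cells of a kind and less RNA per cell cannot be told apart.

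Methylation of H3K27 and H3K9 is written by methyltransferases, among them EZH2 and G9a, and is read as a mark of silent chromatin. Its removal depends on 2 families of enzymes. The JmjC proteins use Fe(II), oxygen and alpha-ketoglutarate to oxidise the methyl group. The flavin-dependent amine oxidase KDM1A acts, of these 2 lysines, on H3K9 only, and cannot act on a trimethylated lysine. KDM6A (UTX) and KDM6B (JMJD3) act on H3K27, the KDM3, KDM4 and PHF proteins mainly on H3K9, and KDM6A is recurrently inactivated in multiple myeloma and other cancers. Both inhibitors therefore act on the writers of the marks that these genes' products erase.

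Sequences are shown for the promoters of the 3 members on which the results turn. KDM4C, by 1 of its 4 probes, and PHF2, in MM.1S cells, were called higher with treatment. KDM6A was well above background in MM.1S cells only. Each is the run of 250 bases before an annotated RefSeq start (build GRCh38.p14), 5′ to 3′ on the strand of the gene, and capitals mark the E-box CACGTG, the element bound by MYC and its partner MAX.
KDM4C, chr9:6757723-6757972, plus strand: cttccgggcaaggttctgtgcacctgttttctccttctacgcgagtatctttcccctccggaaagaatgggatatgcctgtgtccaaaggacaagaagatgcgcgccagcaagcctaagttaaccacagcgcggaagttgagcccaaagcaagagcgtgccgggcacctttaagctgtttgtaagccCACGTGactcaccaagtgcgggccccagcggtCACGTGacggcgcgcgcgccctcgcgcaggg
PHF2, chr9:93576334-93576583, plus strand: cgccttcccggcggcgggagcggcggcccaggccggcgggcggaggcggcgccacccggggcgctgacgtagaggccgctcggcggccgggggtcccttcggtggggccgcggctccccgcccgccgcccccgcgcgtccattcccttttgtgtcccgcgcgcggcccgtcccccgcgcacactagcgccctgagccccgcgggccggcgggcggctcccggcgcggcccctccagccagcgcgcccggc
KDM6A, chrX:44872938-44873187, plus strand: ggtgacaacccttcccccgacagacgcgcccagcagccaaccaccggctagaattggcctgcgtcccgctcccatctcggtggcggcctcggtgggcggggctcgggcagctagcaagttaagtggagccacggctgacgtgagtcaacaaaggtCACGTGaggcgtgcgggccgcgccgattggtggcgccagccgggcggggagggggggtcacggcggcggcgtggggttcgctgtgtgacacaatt
The E-box, which reads the same on both strands, occurred 2 times before KDM4C, 1 time before KDM6A and 0 times before PHF2. All 10 members had a promoter in the RefSeq table, in 14 windows, and 3 of these windows (those of KDM4B, KDM4C and KDM6A) held an E-box, against 6.34% of all 35116 windows of this length. The core of the interferon-stimulated response element, searched on either strand as 2 copies of GAAA with any 2 bases between them, was found in 1 of the 14 windows, which belongs to PHF8, against 3.02% of all windows. The windows of the members held between 1 and 46 CG dinucleotides, with 46 before PHF2, where 84.8% of the bases were G or C, against a median of 11 over all windows. These are matches of letters and were not set against binding data.

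All 8 plasma cell markers examined, SDC1, TNFRSF17, XBP1, IRF4, CD38, SLAMF7, MZB1 and PRDM1, were well above background on all 16 arrays. Of 7 markers of other cell types on the array, KRT19, COL1A1 and COL1A2 were well above background on 1, 2 and 2 arrays, CD3E on 9, EPCAM on 12, and CD3D and CD14 on all 16. In both lines several markers differed between treatments. From DMSO to the combination in RPMI-8226 cells SLAMF7 went from -3.10 and -2.02 to 1.84 and 2.82, and TNFRSF17 from 3.08 and 3.20 to 0.00 and 1.18. There CD3D went from -2.70 and -2.59 to 2.27 and 2.42, CD14 from -1.50 and -1.08 to 1.21 and 1.54, and IRF4 from 2.52 and 2.89 to 0.85 and 1.16. EPCAM, at -1.76 or below in MM.1S cells, went from 4.80 and 5.26 to 3.59 and 3.89. In MM.1S cells IRF4 went from 4.14 and 4.21 to 2.93 and 3.05. EPCAM went there from -2.97 and -2.49 to -6.76 and -5.51 (not well above background), and CD3E from -5.06 and -4.65 (not well above background) to -2.50 and -2.43. Their part in the results was not tested. The share of spots well above background ran from 46.5% to 52.8%. All RPMI-8226 arrays were on 1 slide and all MM.1S arrays on another, so that cell line and slide cannot be told apart, and treatments followed the columns and replicates the rows of a slide.

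**Figure D1:**
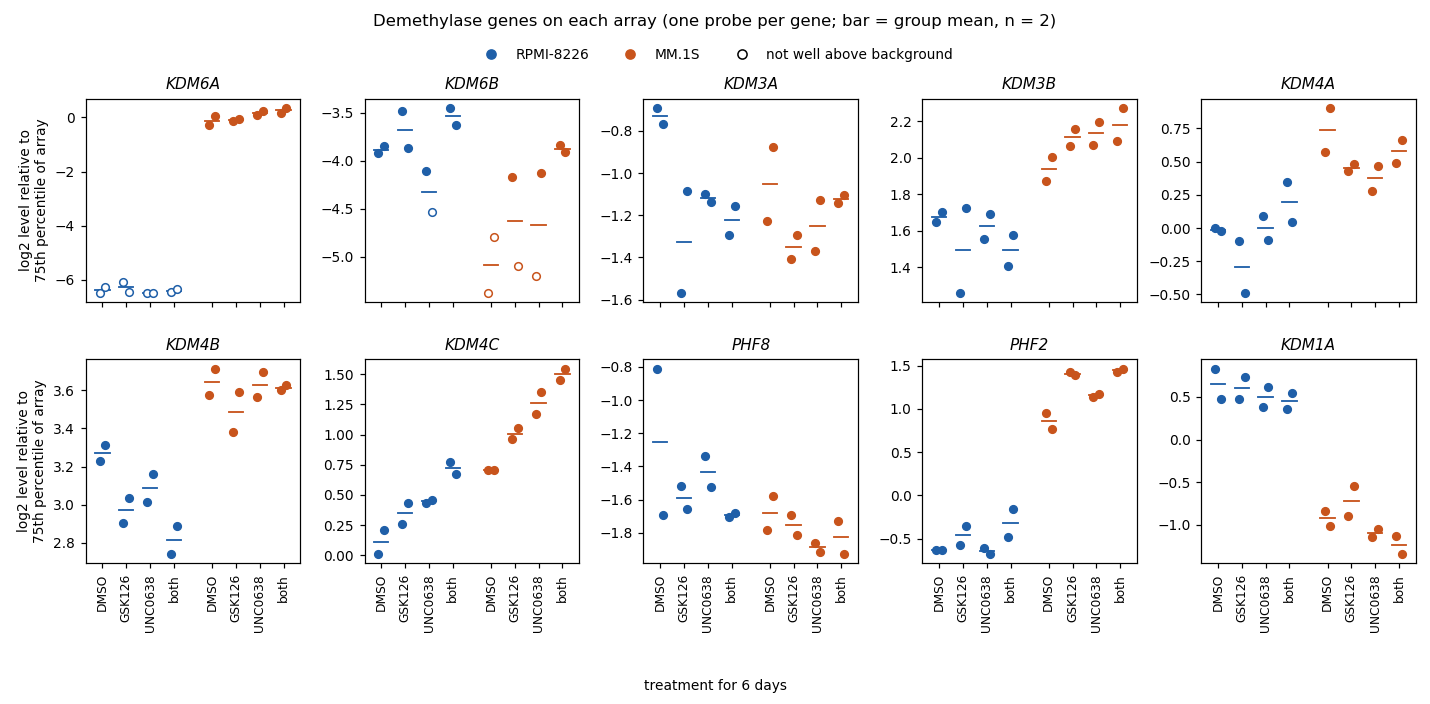
Level of the 10 demethylase genes on each of the 16 arrays (y axis, log2 intensity relative to the 75th percentile of the array, with its own scale in each panel) by treatment (x axis) in RPMI-8226 (blue) and MM.1S cells (orange). Points are arrays, bars are means of 2 arrays, and open points were not well above background. KDM6A lay at -6.09 or below on all 8 RPMI-8226 arrays and at -0.28 or above on all 8 MM.1S arrays, and KDM4C was highest with both inhibitors in both cell lines.

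On the DMSO arrays, taken after 6 days of vehicle, both H3K27 demethylases were called different between the cell lines. The call for KDM6B depended on single arrays. KDM6A, the X-linked subunit of the MLL3 and MLL4 complexes, had levels of -0.28 and 0.05 on the DMSO arrays of MM.1S cells, and of -6.47 and -6.28 on those of RPMI-8226 cells. Its probe (chrX:44971035-44971094, GRCh37, the build of the array design) was well above background on all 8 MM.1S arrays and on 0 of the 8 RPMI-8226 arrays. The DMSO means, -0.12 against -6.38, were thus at least 18.0-fold apart. The fitted difference of -6.26 was called (limma, adjusted p = 2.78e-10), and the bound itself was not tested. The other KDM6A probe (chrX:44971784-44971843) showed the same split, with 8 arrays against 0. It was at least 2.52-fold higher in MM.1S cells (limma, adjusted p = 3.70e-07 for the fitted difference). With normexp background correction, whose offset of 50 shrinks the differences of dim probes, the log2 difference of the main probe was -2.65 and was still called.

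Other genes showed the same split between the lines. Of 14985 genes that were well above background on all 8 MM.1S arrays, 646 (4.31%) were so on 0 of the 8 RPMI-8226 arrays, and on the X chromosome these were 38 of 504 (7.54%). Within 3000 kb of its probe, 34 other genes were well above background on at least 1 array, and 23 of them were so on all 16. FUNDC1, the nearest of these 23, ranged from 0.40 to 0.86 on the RPMI-8226 arrays and from 0.00 to 0.49 on the MM.1S arrays. Only RGN and ZNF630 among the 34 joined KDM6A in being well above background on 7 or 8 MM.1S arrays and on 0 RPMI-8226 arrays. On the MM.1S arrays RGN lay between -4.69 and -3.43, close to background, and ZNF630 between -1.29 and -0.03. On the DMSO arrays 112 of 18213 genes had a larger fitted difference toward MM.1S cells than KDM6A. The arrays measured RNA only, and whether the gene is intact in RPMI-8226 cells was not tested.

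**Figure D2:**
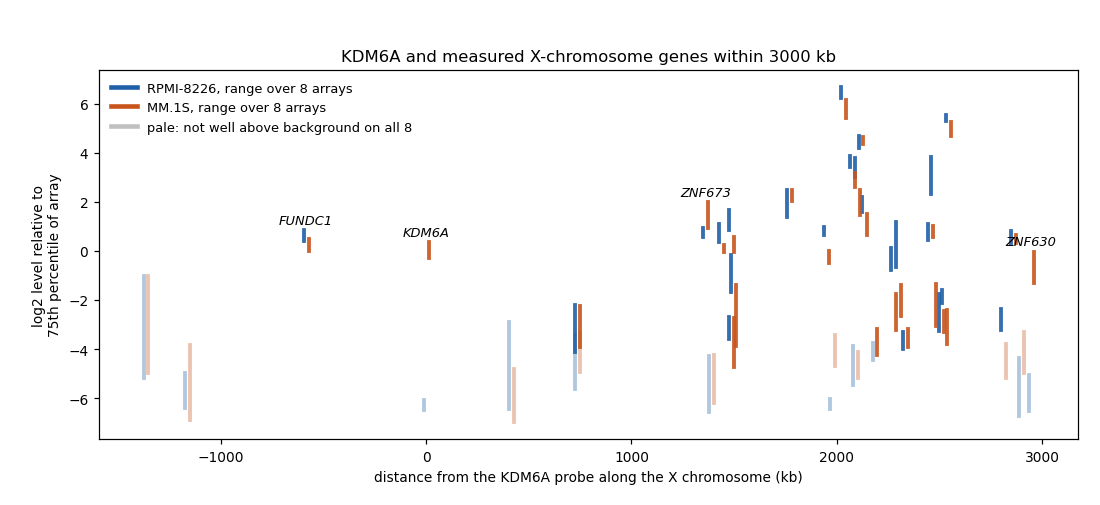
Level of KDM6A and of 34 other X-chromosome genes within 3000 kb that were well above background on at least 1 array (y axis, log2 intensity relative to the 75th percentile of the array) against the distance from the KDM6A probe (x axis, kb). Each bar spans the lowest to the highest of the 8 arrays of a cell line, and pale bars were not well above background on all 8. FUNDC1, on one side, was well above background in both lines, while KDM6A was so in MM.1S cells only.

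With treatment, KDM6A in MM.1S cells lay at -0.14 and -0.07 with GSK126, at 0.08 and 0.24 with UNC0638 and at 0.18 and 0.35 with GSK126 + UNC0638. The combination arrays were above both DMSO arrays, and the difference of 0.38 (95% interval 0.05 to 0.71) did not pass the threshold (limma, adjusted p = 0.056). It passed under 5 alternatives, among them without replicate 2 of DMSO (0.55, adjusted p = 0.026). The other KDM6A probe gave 0.15 (SE 0.22, adjusted p = 0.59). In RPMI-8226 cells the lowest and highest of the 8 values of the main probe were -6.49 and -6.09, all at background, so no test of treatment was made there.

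KDM6B, the inducible H3K27 demethylase, was close to background in MM.1S cells. Its levels in RPMI-8226 cells were -3.92 and -3.85 with DMSO, -3.49 and -3.87 with GSK126, -4.11 and -4.54 (not well above background) with UNC0638 and -3.45 and -3.63 with the combination. The UNC0638 arrays were below the combination arrays, by 0.78 on average (95% interval 0.29 to 1.28), which limma called only with the replicate number as a block (adjusted p = 0.11 without and 0.049 with the block). The difference was 0.26 with normexp and 0.47 with quantile normalization, not called in either (limma, adjusted p = 0.37 and 0.25). In MM.1S cells the levels were -5.38 and -4.80 with DMSO, -4.17 and -5.09 with GSK126, -5.20 and -4.13 with UNC0638 and -3.84 and -3.91 with the combination. Both DMSO arrays were not well above background, and both combination arrays were. The probe was kept for the MM.1S fit through its combination arrays alone. Its comparisons with that group are therefore not independent of the filter. The combination mean was at least 1.88-fold that of DMSO, a bound that leaves out the spread between arrays. limma did not call the fitted difference of 1.21 (adjusted p = 0.061). With normexp, which shrinks the differences of dim probes, the log2 difference was 0.33 (limma, adjusted p = 0.029). With the percentile over probes detected on all arrays it was 1.43 and called too (0.038). It was not called with quantile normalization (0.95, adjusted p = 0.20) or with the replicate block (0.085). On the DMSO arrays KDM6B was higher in RPMI-8226 than in MM.1S cells, by at least 1.86-fold (limma, adjusted p = 0.018; log2 difference 0.59 with normexp), a call that was lost without either RPMI-8226 DMSO array (adjusted p = 0.057 and 0.069) and without replicate 1 of the MM.1S DMSO arrays (0.13).

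Among the H3K9 demethylases, KDM4C, which removes the trimethyl and dimethyl marks of H3K9, was the member called most often. In MM.1S cells it lay at 0.71 on both DMSO arrays, at 0.96 and 1.06 with GSK126, at 1.17 and 1.35 with UNC0638 and at 1.45 and 1.55 with GSK126 + UNC0638. In RPMI-8226 cells it lay at 0.01 and 0.21 with DMSO, at 0.26 and 0.43 with GSK126, at 0.44 and 0.46 with UNC0638 and at 0.77 and 0.68 with the combination. In both lines the order of the group means was DMSO, GSK126, UNC0638 and then the combination, and in both lines the 2 combination arrays were above the arrays of the other 3 groups.

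KDM4C rose in MM.1S cells by 0.55 (SE 0.09) with UNC0638 and by 0.79 (SE 0.09) with the combination, 1.47-fold and 1.73-fold (limma, adjusted p = 0.0098 and 0.0011), and the former was lost without replicate 2 of UNC0638 (0.47, adjusted p = 0.053). The combination was also higher than GSK126 alone, by 0.49 (95% interval 0.26 to 0.72, adjusted p = 0.010), which was lost without replicate 1 of GSK126 (0.056) and without replicate 2 of the combination (0.052). In RPMI-8226 cells KDM4C rose by 0.61 (SE 0.14), 1.53-fold, with the combination (adjusted p = 0.041). That call was lost without any 1 of the 4 arrays compared, with adjusted p between 0.074 and 0.19 and differences between 0.52 and 0.71. Neighbours in the order did not differ past the threshold in either line: in MM.1S cells GSK126 was above DMSO by 0.30 (adjusted p = 0.11), UNC0638 above GSK126 by 0.25 (0.13) and the combination above UNC0638 by 0.24 (0.14). The combination departed from the sum of the single agents by -0.06 (95% interval -0.39 to 0.26) in MM.1S cells and by 0.04 (-0.45 to 0.53) in RPMI-8226 cells, and neither departure was called.

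The KDM4C calls rest on 1 of its 4 probes. The probe described so far, A_23_P112201 (chr9:7175334-7175393, GRCh37), is printed in 10 spots per array and was well above background on all 16 arrays. A_21_P0000019, designed on another KDM4C transcript and printed in 1 spot, was also well above background on all 16, and its difference with the combination was 0.15 (SE 0.18, adjusted p = 0.50) in MM.1S cells and 0.00 (SE 0.34, adjusted p = 1.00) in RPMI-8226 cells. A_33_P3236035 and A_24_P93754 were well above background on 11 and 6 arrays, and in MM.1S cells they gave 0.32 (SE 0.36) and 0.51 (SE 0.49), which were not called. With the mean over the kept probes in place of the representative one, none of the 4 KDM4C treatment calls was kept: with the combination the differences were 0.44 in MM.1S and 0.31 in RPMI-8226 cells (adjusted p = 0.13 and 0.37), with UNC0638 in MM.1S cells 0.19 (0.55), and for the combination against GSK126 there 0.18 (0.55).

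**Figure D3:**
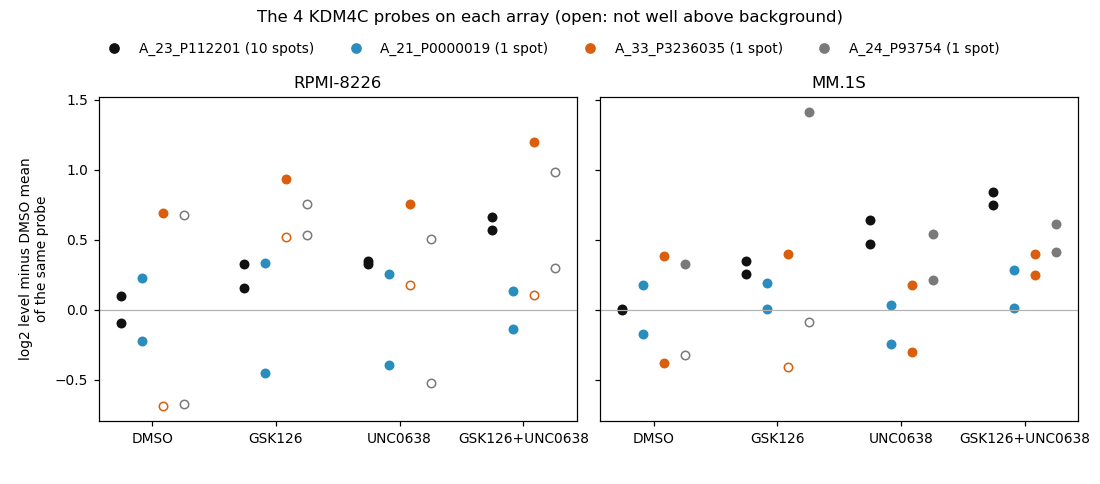
The 4 KDM4C probes on each array, as the log2 level minus the mean of the same probe on the 2 DMSO arrays of the cell line (y axis), by treatment (x axis). Points are arrays, and open points were not well above background. The probe with 10 spots (black) lies above 0 on every treated array of both lines, while the probe A_21_P0000019 (blue) lies on both sides of 0 or close to it.

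PHF2, a JmjC protein with a PHD finger that binds methylated H3K4 and is linked to removal of H3K9 dimethylation, was the other member called higher against DMSO. In MM.1S cells it lay at 0.95 and 0.77 with DMSO, at 1.42 and 1.39 with GSK126, at 1.14 and 1.17 with UNC0638 and at 1.42 and 1.46 with the combination. All 6 treated arrays were above both DMSO arrays. PHF2 rose by 0.55 (SE 0.09), 1.46-fold, with GSK126 and by 0.58 (SE 0.09) with the combination (limma, adjusted p = 0.025 and 0.0026). The call with the combination held in all 14 alternatives tried, with differences between 0.49 and 0.80. Some of these could hardly move the difference, such as the authors' table and, as PHF2 had no other probe, the mean over probes. The call with GSK126 was lost without replicate 2 of DMSO (adjusted p = 0.098) and without either GSK126 array (0.13 and 0.080). The difference of 0.30 with UNC0638 (95% interval 0.08 to 0.51) had an adjusted p of 0.052 and was called under 5 alternatives. The combination and GSK126 alone differed by 0.04 (95% interval -0.18 to 0.25), and GSK126 and UNC0638, at the same dose and time, by 0.25 (0.03 to 0.47, adjusted p = 0.12).

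In RPMI-8226 cells PHF2 lay at -0.64 and -0.63 with DMSO, at -0.57 and -0.35 with GSK126, at -0.61 and -0.68 with UNC0638 and at -0.48 and -0.16 with the combination. The combination arrays were above both DMSO arrays, by 0.31 on average (95% interval -0.08 to 0.71), which was not called (adjusted p = 0.24). The response to the combination was smaller in RPMI-8226 than in MM.1S cells by 0.27 for PHF2 and by 0.18 for KDM4C, and neither of these differences was called (limma, adjusted p = 0.36 and 0.51).

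KDM3A and KDM3B remove the monomethyl and dimethyl marks of H3K9. KDM3A lay at -0.69 and -0.77 with DMSO in RPMI-8226 cells and at -1.57 and -1.08 with GSK126, -1.10 and -1.14 with UNC0638 and -1.29 and -1.15 with the combination. All 6 treated arrays were below both DMSO arrays, yet the differences of -0.60, -0.39 and -0.49 were not called (limma, adjusted p = 0.32, 0.60 and 0.13). In MM.1S cells its values ranged from -1.41 to -0.87, and the differences from DMSO were -0.30, -0.20 and -0.07. KDM3B ranged from 1.26 to 1.73 in RPMI-8226 and from 1.87 to 2.27 in MM.1S cells, where all 6 treated arrays were above both DMSO arrays (mean 1.94). The KDM3B difference with the combination in MM.1S cells, 0.24 (95% interval -0.01 to 0.50), was not called (adjusted p = 0.097), and was called with quantile normalization (0.41, adjusted p = 0.019).

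KDM4A and KDM4B, relatives of KDM4C, were called in no treatment against DMSO in the main fit of either line, which has no replicate block. KDM4A lay at 0.00 and -0.02 with DMSO in RPMI-8226 cells and at 0.35 and 0.05 with the combination, a difference of 0.21 (95% interval -0.24 to 0.66, adjusted p = 0.48). In MM.1S cells its DMSO arrays were at 0.58 and 0.91 and its UNC0638 arrays at 0.28 and 0.47, a difference of -0.37 that limma did not call (adjusted p = 0.097). KDM4B lay at 3.23 and 3.32 with DMSO in RPMI-8226 cells, at 2.91 and 3.04 with GSK126, at 3.01 and 3.16 with UNC0638 and at 2.74 and 2.89 with the combination. All 6 treated arrays of KDM4B were below both DMSO arrays in this line. Its difference of -0.46 with the combination (95% interval -0.80 to -0.12) was called with the replicate number as a block (adjusted p = 0.046) and not without it (0.083). Arrays of the same number were correlated in RPMI-8226 cells, where number and slide row cannot be told apart. In MM.1S cells KDM4B values lay between 3.38 and 3.71 in all groups.

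PHF8, an X-linked demethylase of H3K9 dimethylation, was not called in any treatment. Its DMSO arrays in RPMI-8226 cells stood apart from each other, at -0.81 and -1.69, and the other 6 arrays of the line lay between -1.71 and -1.33. The difference with the combination was -0.44 with both DMSO arrays, -0.88 without replicate 2 and 0.00 without replicate 1. In MM.1S cells PHF8 lay between -1.93 and -1.58. Its other probe gave -0.06 in RPMI-8226 and -0.41 in MM.1S cells with the combination (adjusted p = 0.84 and 0.097).

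KDM1A (LSD1), the flavin-dependent enzyme, differed more between the lines than between treatments. It lay at 0.83 and 0.47 with DMSO in RPMI-8226 cells and at -0.84 and -1.01 in MM.1S cells. All treated RPMI-8226 arrays lay between 0.36 and 0.73. In MM.1S cells the values were -0.90 and -0.54 with GSK126, -1.14 and -1.05 with UNC0638 and -1.14 and -1.34 with the combination. The combination was lower than GSK126 alone by a log2 difference of -0.52 (95% interval -0.88 to -0.16; limma, adjusted p = 0.036), and lower than DMSO by -0.31, which was not called (0.12). The call against GSK126 was lost in 8 of 14 alternatives, among them without replicate 2 of GSK126 (-0.34, adjusted p = 0.14) and without replicate 1 (0.055) or replicate 2 (0.16) of the combination.

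**Figure D4:**
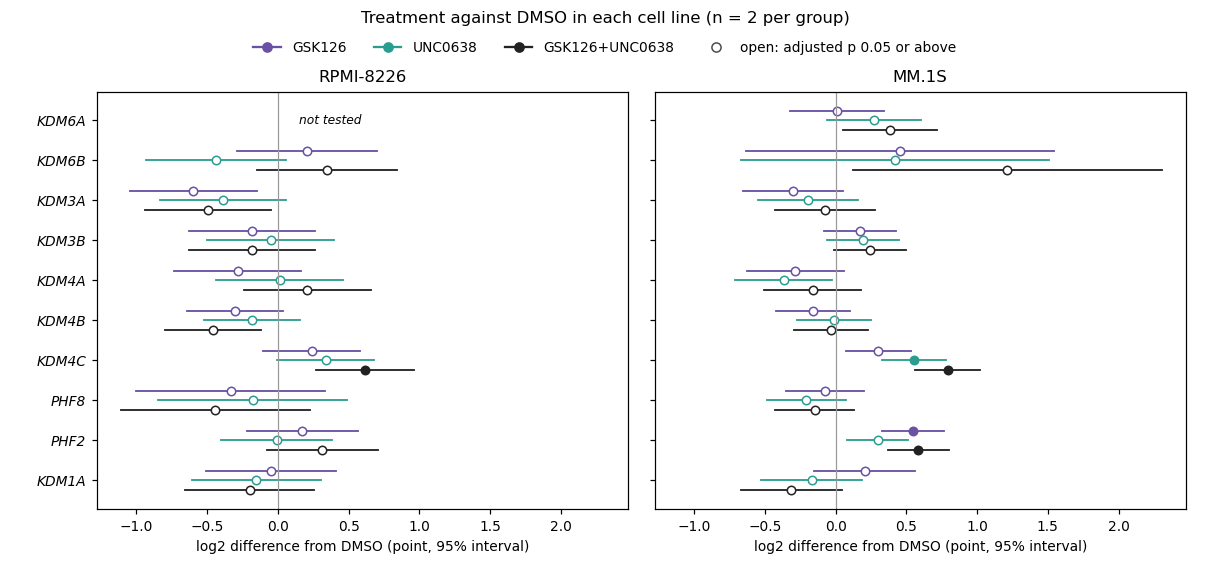
Log2 difference of each treatment from DMSO (x axis, point with 95% interval from limma) for the 10 demethylase genes (y axis) in RPMI-8226 (left) and MM.1S cells (right), with GSK126 in purple, UNC0638 in green and both in black. Filled points passed an adjusted p of 0.05, and KDM6A was not tested in RPMI-8226 cells. The filled points are those of KDM4C (combination) in RPMI-8226 cells and of KDM4C (UNC0638 and combination) and PHF2 (GSK126 and combination) in MM.1S cells, all to the right of 0.

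Counted over the set, few members were called, and the share of all genes called sets the scale. In RPMI-8226 cells 9 of the 10 members were bright enough to be tested. With GSK126 0 of 9 were called where 0.704% of all 16060 genes were, with UNC0638 0 of 9 where 0.716% were, and with the combination 1 of 9 (KDM4C, higher) where 13% were. At an unadjusted p under 0.05 the counts were 1 (KDM3A), 0 and 3 of 9, where 10.9%, 9.76% and 31.7% of all genes passed. In MM.1S cells all 10 were tested. With GSK126 1 of 10 (PHF2, higher) was called where 8.24% of all 17012 genes were, with UNC0638 1 of 10 (KDM4C, higher) where 30.3% were, and with the combination 2 of 10 (both higher) where 55.4% were. The unadjusted counts in MM.1S cells were 2, 3 and 4 of 10, where 28.7%, 44% and 61.7% of all genes passed. With the replicate number as a block the count with the combination in RPMI-8226 cells was 2 of 9 (KDM4B and KDM4C), where 21% of all genes were called, and that against UNC0638 was 1 of 9 (KDM6B), where 7.48% were. The 3 comparisons of a line share their DMSO arrays.

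The median difference of the members with the combination was -0.18 in RPMI-8226 cells, against -0.10 over all genes tested, and 0.11 in MM.1S cells, against -0.11 over all genes. In RPMI-8226 cells the members ran from -0.49 to 0.61 and in MM.1S cells from -0.31 to 1.21. Only the fitted value of KDM6B in MM.1S cells, whose bound is 1.88-fold, passed 2-fold. That probe was kept there through its combination arrays alone. The combination against GSK126 gave 0 of 9 calls in RPMI-8226 cells (2.83% of all genes) and 2 of 10 in MM.1S cells (38.5%), KDM4C higher and KDM1A lower. Against UNC0638 it gave 0 of 9 (3.8%) and 0 of 10 (14.5%). UNC0638 against GSK126, matched in dose and time, gave 0 of 9 (1.65%) and 0 of 10 (12.9%), with differences from -0.65 to 0.30 and from -0.38 to 0.27. At an unadjusted p under 0.05, 2 of 9 and 3 of 10 members passed for the combination against GSK126 (18.9% and 49.2% of all genes), 1 of 9 and 2 of 10 for the combination against UNC0638 (20.3% and 34.4%), and 1 of 9 and 3 of 10 for UNC0638 against GSK126 (13.4% and 31.1%). No member departed from additivity (0.199% of all genes in RPMI-8226 and 0% in MM.1S cells), and no member's response differed between the lines past the threshold without the replicate block (0.928%, 3.26% and 14.7% of 18213 genes with GSK126, UNC0638 and the combination). The response of KDM4B to the combination, lower in RPMI-8226 cells by a log2 difference of -0.43 (adjusted p = 0.12), was called with the replicate block (0.042, where 20.9% of all genes were called) and with quantile normalization (-0.58, adjusted p = 0.042). At an unadjusted p under 0.05 by limma, 0 of 9 and 1 of 10 members (KDM4A, 0.49) passed for additivity (4.22% and 9.96% of all genes), and 0, 0 and 1 of 10 (KDM4B) for the difference between the lines with GSK126, UNC0638 and the combination (11.2%, 19.7% and 30.2%).

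The DMSO arrays of the lines were compared in the fit over all 16 arrays. Of the members 7 of 10 were called, a share close to the 59% of all 18213 genes, and as many passed at an unadjusted p under 0.05 (63.2% of all genes). KDM1A was higher in RPMI-8226 cells by 1.58 (SE 0.18), 2.99-fold (limma, adjusted p = 2.35e-05), and KDM6B was higher there too. PHF2 was lower in RPMI-8226 cells by 2.82-fold, at means of -0.63 against 0.86 (log2 difference -1.49, SE 0.13, adjusted p = 3.21e-06). KDM4A, KDM4C and KDM4B were lower in RPMI-8226 cells as well, with log2 differences of -0.75, -0.60 and -0.37 (adjusted p = 0.0032, 0.0011 and 0.020), as was KDM6A. The call for KDM4B was lost without replicate 1 of the RPMI-8226 DMSO arrays (adjusted p = 0.086) or replicate 2 of the MM.1S ones (0.13) and with the mean over probes (-0.60, adjusted p = 0.11), as was that for KDM4C with the mean over probes (-0.56, adjusted p = 0.071). KDM3A (0.32), KDM3B (-0.26) and PHF8 (0.43) were not called.

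Related genes were counted in 4 lists, against 8.26% of all genes called higher and 4.69% lower with the combination in RPMI-8226 cells, and 23.2% higher and 32.2% lower in MM.1S cells. Of 13 other demethylase and JmjC genes tested, 1 rose and 0 fell with the combination in RPMI-8226 cells, and 2 rose and 3 fell in MM.1S cells. KDM5B, an H3K4 demethylase, rose in both lines, from a mean of -3.99 to 0.18 in MM.1S cells (log2 difference 4.17, SE 0.27; limma, adjusted p = 0.00022). In RPMI-8226 cells, where DMSO was not well above background, it rose by at least 5.47-fold (limma, adjusted p = 0.0026 for the fitted difference of 4.37). With normexp the KDM5B differences were 2.60 in MM.1S and 1.15 in RPMI-8226 cells, and both were called. JHDM1D (KDM7A), which acts on dimethylated H3K9 and H3K27 and is not among the 10 members, rose by 1.24 (SE 0.19) in MM.1S cells (adjusted p = 0.0026). MINA and JMJD6, JmjC proteins known mainly as hydroxylases, were lower in MM.1S cells, with log2 differences of -0.84 and -0.50 (adjusted p = 0.0018 and 0.0074).

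Partners that KDM1A and KDM6A share complexes with made up 2 of the lists. Of 13 partners of KDM1A 5 rose and 3 fell with the combination in MM.1S cells, and 0 were called in RPMI-8226 cells. PHF21A, a reader of unmethylated H3K4 in the KDM1A complex, rose by 1.03 (SE 0.10, adjusted p = 0.00061) and ZMYM2 by 0.46 (0.017), while GFI1, a repressor that recruits KDM1A, and HMG20B were lower, with log2 differences of -1.01 and -0.42 (0.0054 and 0.0088). The HMG20B value was -0.04 with quantile normalization (adjusted p = 0.75) and -0.20 with the scaling on probes detected on all arrays (0.0997), not called in either, nor was it without replicate 1 of DMSO (0.050). The call for ZMYM2 was lost without replicate 1 of DMSO (0.080) and without replicate 2 of the combination (0.052). Of 9 partners of KDM6A 1 rose and 3 fell in MM.1S cells, and 0 were called in RPMI-8226 cells. MLL3, the methyltransferase of a KDM6A complex, rose by 0.38 (adjusted p = 0.045), a call lost in 7 of 14 alternatives, among them without replicate 1 of DMSO (0.20) and without replicate 1 (0.051) or 2 (0.19) of the combination, while RBBP5 and C16orf53 (PAGR1) were lower, with log2 differences of -0.61 and -0.55 (0.013 and 0.0055). The call for RBBP5 was lost with the scaling on detected probes (-0.39, adjusted p = 0.066), without replicate 2 of DMSO (0.063) and without replicate 2 of the combination (0.060).

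The writers of the 2 marks were the last list. Of 8 genes for H3K27 and H3K9 methyltransferases, 0 rose and 4 fell with the combination in MM.1S cells, and 0 were called in RPMI-8226 cells. EZH2, the target of GSK126, was at a mean of 3.75 with DMSO and 2.65 with the combination in MM.1S cells (log2 difference -1.10, SE 0.18; limma, adjusted p = 0.0035), and at 2.91 and 2.61 in RPMI-8226 cells (-0.30, adjusted p = 0.20). SUV39H1, which trimethylates H3K9, had a log2 difference of -1.15 in MM.1S cells (adjusted p = 0.00026). EHMT2, the gene of G9a, had -0.32 in MM.1S (adjusted p = 0.035) and -0.53 in RPMI-8226 cells (0.16), and the former was not called with the scaling on probes detected on all arrays (-0.11, adjusted p = 0.40), without replicate 1 of DMSO (0.16) or without replicate 2 of the combination (0.15).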

How the data were processed

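Each of 16 samples, 2 biological replicates in each of 8 groups, was hybridised to a 1-colour Agilent human array. The authors deposited scanner output (Agilent Feature Extraction, version 10.7, per the submitters' processing notes), with a linear, background-subtracted intensity for each spot, and a table of the same intensities, of which 99.9951% of 939472 values were equal after rounding to 3 significant digits. The arrays had not been normalized to each other. The authors imported them into GeneSpring GX, selected probe sets by fold change and name no statistical test for these arrays in the sources used here.

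Control spots (4259 of 62976) and outlier spots were removed. Each array's 75th percentile was subtracted on the log2 scale, replicate spots of a probe were averaged, and a probe was kept if some group of the line had it well above background on both its arrays (23196 probes of RPMI-8226, 25100 of MM.1S and 26928 for both lines). Of several kept probes, the one with the highest 16-array mean represented the gene. limma (version 3.58.1, R 4.3.3; lmFit, eBayes) was fitted to the 8 arrays of a line, or to all 16 for comparisons between lines, with Benjamini-Hochberg adjustment over all kept probes and a threshold of 0.05. Where a group was not well above background, a fold is a lower bound against the dimmest probe that was, or the probe's own value if higher. Such a bound is taken on the group means and leaves out the spread between arrays. A p-value beside a bound is that of the fitted difference, and no bound was tested. The number of arrays and the signal over background limit the precision, and p-values measure the spread between these arrays. The fits were tested on simulated data.

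Deviations from the group means correlated over 0.1 between arrays of the same number in 6 of 6 pairs of groups in RPMI-8226 (r between 0.25 and 0.42 across probes) and in 5 of 6 in MM.1S cells (0.085 to 0.22). The labels give replicate numbers and state no pairing. These numbers followed the rows of a slide, so that pairing of samples and slide row cannot be told apart. The alternatives were quantile normalization, normexp background correction (offset 50), a percentile over probes detected on all arrays, no filter, a filter on every array, the authors' table, a replicate block, the mean over probes, 1 fit over 16 arrays, only the groups compared, and leaving out each array. A slide block was not run, since each line was on 1 slide. All 10 members were named, with EZH2 and EHMT2 and at most 2 called genes per direction of each list. The members, lists and tests were chosen with earlier results of these data known. Promoters were read from a RefSeq table (GRCh38.p14), figures were drawn with matplotlib (version 3.10.9), and no protein sequence or genome was used here.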

Additional observations from a re-analysis of the deposited data

Results flagged for a closer look

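Of the members, the response of KDM4B to the combination differed between the cell lines only with the replicate block or quantile normalization (adjusted p = 0.042 in each). Of the other genes named, 3 differed for GSK126 + UNC0638 against DMSO by limma's interaction term, where 14.7% of all 18213 genes were called. JHDM1D and C16orf53 were named for their calls with the combination in MM.1S cells, so this comparison reuses the arrays that picked them. The response of JHDM1D was lower in RPMI-8226 than in MM.1S cells by a log2 difference of -1.22 (adjusted p = 0.049), that of EZH2 was higher by 0.81 (0.043), and that of C16orf53 was higher by 0.74 (0.038). Among 16 alternatives these calls were lost in 8, 10 and 8, and 6, 7 and 6 of the 8 arrays compared lost them when left out, with adjusted p between 0.058 and 0.16 for JHDM1D, 0.066 and 0.11 for EZH2 and 0.079 and 0.12 for C16orf53.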

How the results depend on the processing

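Of 32 called values of members and other named genes, 353 of 437 recomputed values kept direction and call, 84 lost the call and 0 turned. Of 54 values not called, 21 of 750 recomputed values were called and 31 turned, none of those called. The cause of each change was not tested.

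The count of members called is given beside the share of all genes called under the same setting. With the combination in RPMI-8226 cells it was 1 (13%), and 0 with no filter (3.74%), with only the groups compared (6.92%) and with the mean over probes (14.3%), and 2 with the replicate block (21%) and with 1 fit over all arrays (24.4%). The block gave 1 for the combination against UNC0638 in RPMI-8226 cells (KDM6B, 7.48%) and 1 for the difference between the lines with the combination (KDM4B, 20.9%), which was also 1 with quantile normalization (14.9%). Arrays of the same number were only weakly correlated in MM.1S cells (r between 0.085 and 0.22). There the block gave 2 with UNC0638 (35.6%, adding KDM4A, adjusted p = 0.033) and 4 with the combination (59.5%, adding KDM3B, 0.029, and KDM6A, 0.017), and against GSK126 it added KDM6A (0.025) and lost KDM1A (0.051). With GSK126 in MM.1S cells the count was 1 (8.24%), and 0 with no filter (1.02%), 1 fit (3.37%) and only the groups compared (2.34%). With UNC0638 there it was 1 (30.3%), and 2 (adding PHF2) with quantile normalization (25.8%), normexp (33.3%), the percentile over detected probes (27.7%) and the filter on every array (35.2%). With the combination there it was 2 (55.4%), 3 with quantile normalization (53.6%, adding KDM3B), the filter on every array (59.5%), 1 fit (40.9%) and only the groups compared (48.7%), 5 with normexp (57.2%) and with detected probes (52%), both adding KDM3B, KDM6A and KDM6B, and 1 with the mean over probes (55.9%). The combination against GSK126 gave 2 (38.5%), 3 with quantile normalization (37.2%, adding KDM4B) and normexp (42.1%, adding KDM6A), and 1 with no filter (12.9%), 1 fit (24.2%), only the groups compared (27.4%) and the mean over probes (39.3%). Against UNC0638 it gave 0 (14.5%), and 1 (PHF2) with quantile normalization (13%) and detected probes (11.9%). Between the DMSO arrays of the lines it was 7 (59%), 9 with normexp (59.7%), and 5 with the filter on every array (62.2%) and with the mean over probes (59.6%). Leaving out an array leaves a group with 1 array, and no count of members called is given for those fits.

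The percentile over detected probes raised the median of all genes with the combination by 0.14 (RPMI-8226) and 0.21 (MM.1S). Under it these differences changed sign without being called: KDM1A with GSK126 (0.0026) and PHF2 with UNC0638 (0.019) for RPMI-8226, and for MM.1S cells PHF8 with GSK126 (0.0065), KDM4B with UNC0638 (0.092), and KDM3A (0.14), KDM4A (0.052), KDM4B (0.18) and PHF8 (0.067) with the combination. Quantile normalization turned KDM4B in MM.1S cells with UNC0638 (0.16) and the combination (0.29), and the mean over probes turned KDM6A with GSK126 (-0.078).

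Leaving out 1 array also turned values that were not called. In RPMI-8226 cells the ranges were, with GSK126, -0.42 to 0.05 for KDM3B, -0.23 to 0.13 for KDM1A and -0.78 to 0.11 for PHF8, with UNC0638, -0.12 to 0.014 for KDM3B, -0.076 to 0.10 for KDM4A, -0.33 to 0.029 for KDM1A, -0.62 to 0.26 for PHF8 and -0.044 to 0.025 for PHF2, and with the combination, -0.88 to 0.00043 for PHF8. In MM.1S cells they were, with GSK126, -0.16 to 0.17 for KDM6A, -0.0081 to 0.92 for KDM6B and -0.18 to 0.029 for PHF8, with UNC0638, -0.11 to 0.96 for KDM6B and -0.083 to 0.053 for KDM4B, and with the combination, -0.25 to 0.10 for KDM3A, -0.33 to 0.0028 for KDM4A and -0.10 to 0.036 for KDM4B.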
